A study of Adonis amurensis with 6 samples.

Results

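Homologs of the B-class floral homeotic genes APETALA3 (AP3) and PISTILLATA (PI) were represented by 11 of the 190353 unigenes in the deposited table of floral libraries labelled Adonis amurensis. A unigene is an assembled transcript sequence, and these were taken by name: the best match in the Nr or Swiss-Prot protein database contained PISTILLATA, APETALA3, APETALA 3 or PMADS (the petunia name of this group). No expression value was used to choose them. The Nr name decided the class, or the Swiss-Prot name where Nr gave none, which placed 3 unigenes in the PI class and 8 in the AP3 class. One of the 8, Unigene123412, was nearest to a poppy gene and high in a single library, and whether it is a gene of A. amurensis was not tested, so 10 of the 11 are without this doubt.

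The plants were open-field A. amurensis, a spring-flowering perennial of the buttercup family (Ranunculaceae), and the RNA came from whole floral organs, so sepals, petals, stamens and carpels were not separated. One library was sequenced at each of 6 stages. The earliest, FBD, was the differentiating flower bud. YA and VCA were closed buds (alabastra), the former young and the latter with visible color. The open flowers were EFS at early flowering, FBS at full bloom and SFS at senescence. No genotype, treatment or age was given apart from the stage, and the sources used here do not give how many plants entered a library. With 1 library per stage there was no replicate error, so no difference between stages was tested and every ratio compares 2 libraries.

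AP3 and PI encode MADS-domain transcription factors. In Arabidopsis the proteins bind DNA as an AP3-PI pair, and together they specify petals and stamens. In Ranunculaceae the AP3 gene was duplicated into lineages named AP3-1, AP3-2 and AP3-3, and in Aquilegia and Nigella AP3-3 is the copy expressed mainly in petals and needed to form them.

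The values are FPKM, fragment counts divided by unigene length and by the mapped reads of the library, so levels can be compared between unigenes of different length. FPKM does not carry the number of reads. The relative depth of the libraries, read from the ratio shared by weakly covered unigenes, was between 0.804 in FBD and 1.15 in EFS with YA as 1. The search was limited in advance to depths near that of YA, so a larger difference could not have been found. For FBD it used only unigenes weakly covered in both FBD and YA. The FBD library stood apart from the other 5. An FPKM of 1 was reached by 101053 unigenes, either in FBD or as the mean of the 5 later libraries. Of these, FBD exceeded the later mean by 20-fold or more for 52685 and lay below it by that much for 46925, and 1443 differed less. FBD is therefore described on its own, after the other 5.

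The contig that carried most of the B-class signal was CL7507.Contig2, the main PI unigene. Its full sequence is not printed here, but the primer pair the study designed to measure it by qPCR identifies it, 22 and 23 bases long. The qPCR levels measured with this pair are not reported here. Both primers are written 5′ to 3′.
CL7507.Contig2-qF: tggaaatgaacgggaatgtgag
CL7507.Contig2-qR: ctgtagattaggctggattgggt

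The names of the 11 unigenes rested on matches within the flowering plants' B class. In Nr, 10 had their best match in Ranunculaceae, of which 6 were in Adonis vernalis, 2 in Trollius laxus and 2 in Actaea vaginata. The exception was Unigene123412, whose best match was a Papaver nudicaule AP3 homolog. In the KOG database, 2 matched the Arabidopsis PI gene (At5g20240), 7 matched the Arabidopsis AP3 gene (At3g54340) and 2 had no match. A MADS-family InterPro entry was listed for 8, and the other 3 (Unigene5582, Unigene31031 and Unigene7156) had none. The nucleotide database Nt gave the lineage more often than Nr, with 9 best matches in A. vernalis genes. By Nt, CL7507.Contig2 and Unigene7156 matched PI-1, Unigene23673 matched PI-2, Unigene1341 matched AP3-1 (of Trollius laxus), Unigene31032, Unigene5582 and Unigene31031 matched AP3-2, and CL27078.Contig1, CL27078.Contig2 and Unigene29707 matched AP3-3. The use of Nt for the lineage was chosen after the values were seen. Nr by itself names AP3-2 for 2 of these and no other lineage.

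The 2 abundant PI unigenes held the highest levels of the B class in every stage from YA to SFS. CL7507.Contig2 (PI-1) had an FPKM of 824 in YA and 794 in VCA, then 684, 702 and 479.95 in EFS, FBS and SFS. It was the highest of the 102 unigenes with a MADS-box match in KOG in each of these 5 libraries, and it alone held between 42.5% (VCA) and 49.6% (FBS) of their summed FPKM. Among all unigenes it ranked 31st in YA and 116th in SFS by FPKM. Its highest and lowest levels differed 1.72-fold. The log2 ratio of SFS to YA was -0.78, and it turned to 0.18 when each library was divided by its summed actin FPKM. In a description chosen after the values were seen, 12.7% of the 6480 unigenes with a mean FPKM of at least 20 over the 5 libraries had a smaller range than this one.

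Unigene23673 (PI-2) was the other abundant PI unigene, at 159.6 in YA and 137 in VCA, then 119, 79.7 and 95.5 in EFS, FBS and SFS. It lay below CL7507.Contig2 in all 5 libraries. The ratio of the PI-1 sum to PI-2 was 5.17 in YA and 5.81 in VCA, then 5.74, 8.83 and 5.03 in EFS, FBS and SFS, so PI-2 was weakest against PI-1 at full bloom. The third PI unigene, Unigene7156, had a weak match (E-value 9.8e-11) and never exceeded an FPKM of 1.41.

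**Figure D1:**
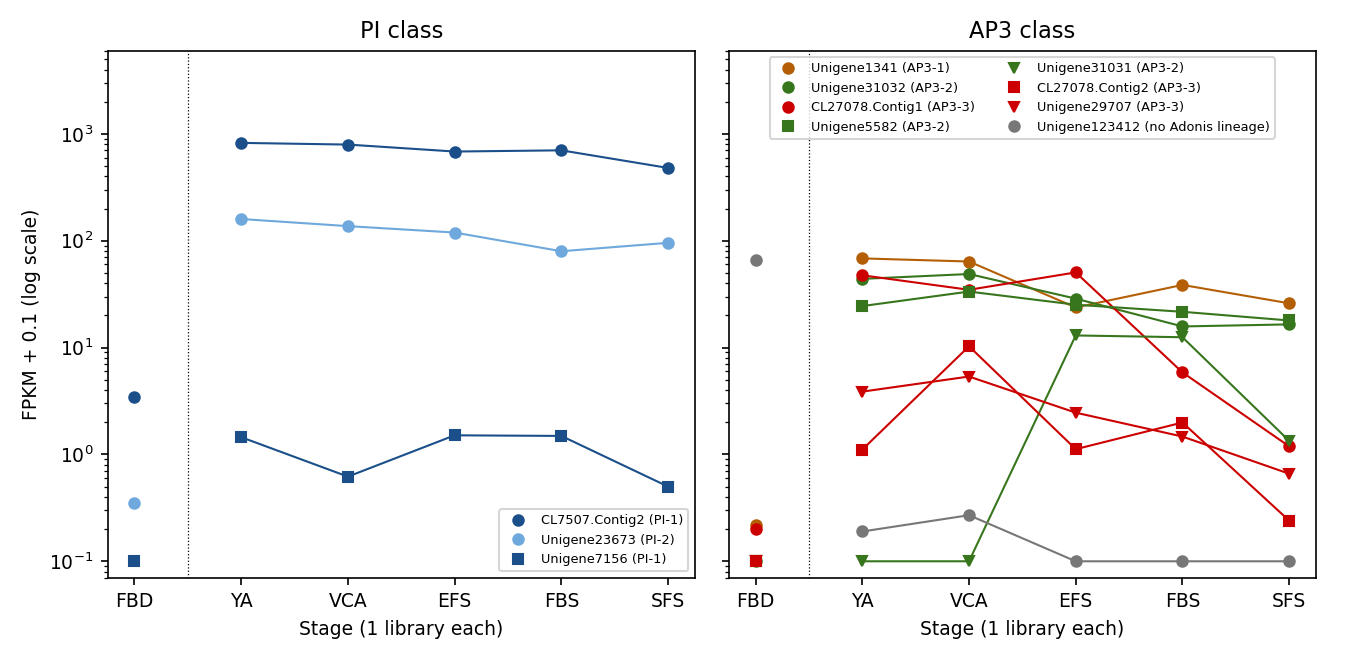
FPKM + 0.1 on a log scale for each of the 11 B-class unigenes (points) in the 6 stage libraries, PI class left and AP3 class right, with lines joining the 5 libraries from YA to SFS and FBD set apart by a dotted line. CL7507.Contig2 stays between 479.95 and 824 from YA to SFS, whereas CL27078.Contig1 goes from 50.4 in EFS to 1.09 in SFS, and Unigene123412 is high in FBD only, at 65.4.

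The AP3 unigenes were lower, with no single one above 68.3 in the later 5 libraries. Unigene1341 (AP3-1) had an FPKM of 68.3 in YA and 63.8 in VCA, then 23.7, 38.5 and 25.9 in EFS, FBS and SFS. Both bud libraries were above all 3 open-flower libraries for this gene. The step from VCA to EFS was 2.70-fold in FPKM (log2 ratio of FPKM + 0.1, as in all log2 ratios here, -1.43), and the log2 ratio ranged from -1.59 to -1.21 over the pseudocounts and scalings tried.

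AP3-2 was spread over 3 unigenes. Unigene31032 had an FPKM of 43.9 in YA and 48.7 in VCA, then 28.6, 15.7 and 16.4 in EFS, FBS and SFS. Unigene5582 had 24.4, 33.3, 25.1, 21.5 and 17.8 in the same order. Unigene31031 was listed at 0 in YA and VCA and had 12.9 in EFS, 12.4 in FBS and 1.24 in SFS. Unigene31031, with the weaker Nr match (E-value 6.1e-40, beside 5.4e-90), thus had signal only in the open flowers, where Unigene31032 was lower. They are in different sequence clusters, and whether they share reads was not tested. The sum is given beside the single levels. The AP3-2 sum was 68.2 in YA and 82.1 in VCA, then 66.6, 49.6 and 35.5 in EFS, FBS and SFS. Each pair of neighbouring stages differed by less than 2-fold, and with the Nr lineage, which leaves out Unigene31031, the sum was 68.2 in YA and 34.2 in SFS.

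AP3-3, the lineage of petal identity in related genera, had the widest range of the 5 lineages. CL27078.Contig1 had an FPKM of 47.4 in YA and 34.7 in VCA, then 50.4, 5.76 and 1.09 in EFS, FBS and SFS. The 3 libraries up to early flowering were all above 34, and full bloom and senescence were both below 6. CL27078.Contig2, of the same sequence cluster, had 1.01, 10.2, 1.02, 1.89 and 0.14, and with both contigs added the cluster was level in the first 3 libraries at 48.4, 44.8 and 51.5. Unigene29707, a weaker AP3-3 match, had 3.77 in YA and 5.26 in VCA, then 2.36, 1.37 and 0.56 in EFS, FBS and SFS.

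Summed, AP3-3 was 52.2 in YA and 50.1 in VCA, then 53.8, 9.02 and 1.79 in EFS, FBS and SFS. Its FPKM was 5.97-fold lower in FBS than in EFS (log2 ratio -2.56) and 5.04-fold lower in SFS than in FBS (log2 ratio -2.27, which the added 0.1 makes less than the fold). From YA to SFS the log2 ratio was -4.79, and it lay between -4.86 and -3.86 over the pseudocounts and scalings tried. The step from EFS to FBS rests on CL27078.Contig1, because without it the remaining AP3-3 unigenes summed to 3.38 in EFS and 3.26 in FBS. A lower level in a whole flower cannot distinguish fewer cells of a type from less RNA per cell. In the same description as above, over 6652 sequence clusters with a mean FPKM of at least 20, 7.52% had a wider range over the 5 libraries than the AP3-3 sum, whereas 80.9% had a wider range than the PI sum.

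**Figure D2:**
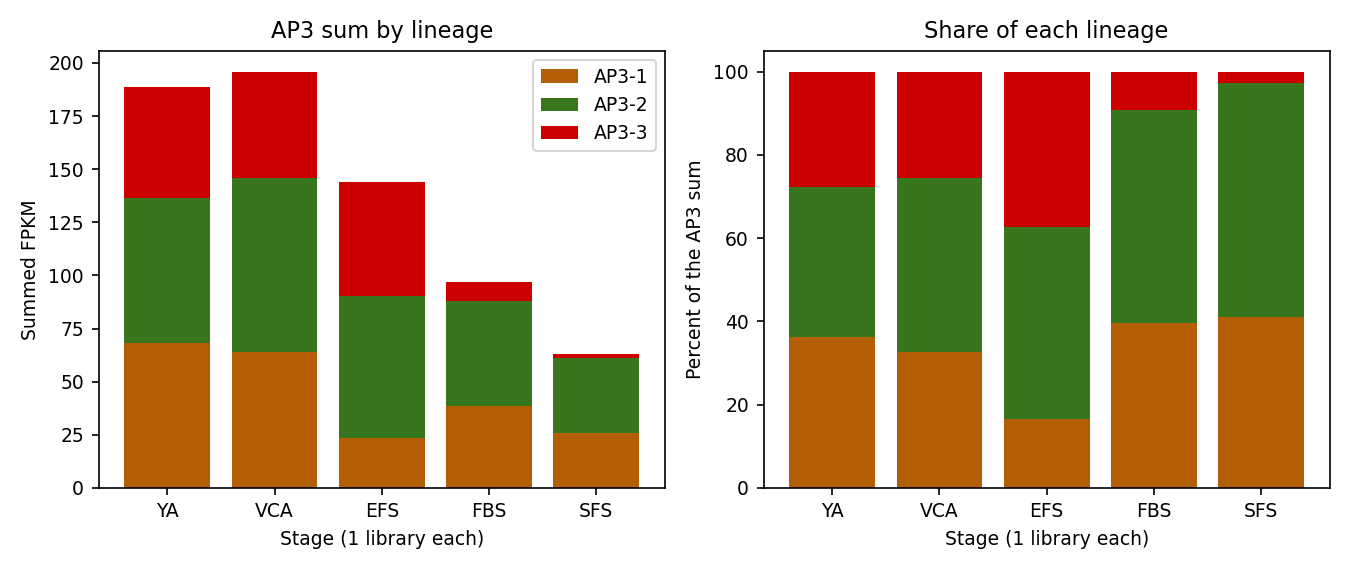
Summed FPKM of the AP3 unigenes by lineage (left) and the same as percent of the AP3 sum (right) in the 5 libraries from YA to SFS, bars stacked from 0. AP3-3 makes up 37.4% of the sum in EFS and 2.84% in SFS.

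The share of each lineage within a library does not depend on how libraries are scaled to each other. AP3-3 made up 27.6% of the AP3 sum in YA and 25.5% in VCA, then 37.4%, 9.29% and 2.84% in EFS, FBS and SFS. The share of AP3-2 was higher at each later stage, from 36.1% in YA to 56.2% in SFS, although its sum was lower in SFS (35.5) than in YA (68.2). AP3-2 was the largest lineage in each library from VCA on. AP3-1 was at its smallest share in EFS, at 16.4%, and at 39.6% and 41.0% in FBS and SFS. From EFS to FBS the log2 ratio of AP3-3 was thus 3.26 below that of AP3-1 (log2 difference -3.26), with ratios of -2.56 and 0.70.

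**Figure D3:**
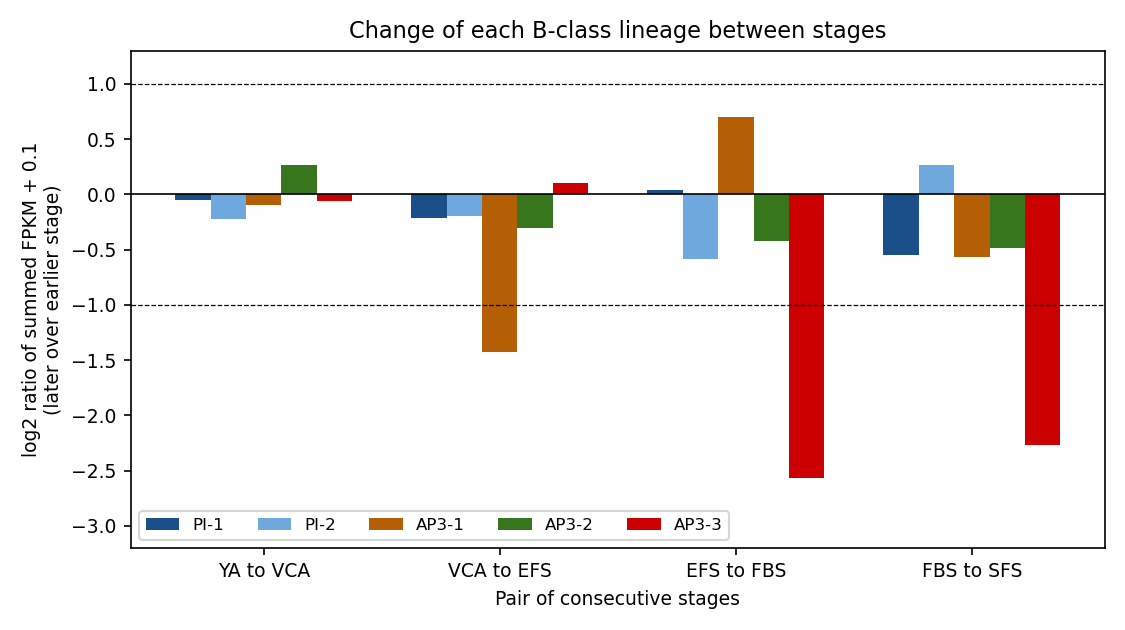
Log2 ratio of the summed FPKM + 0.1 of each lineage between consecutive stages (bars, later over earlier stage), with dashed lines at 2-fold. Without further scaling, AP3-1 passes 2-fold from VCA to EFS (-1.43) and AP3-3 from EFS to FBS (-2.56) and from FBS to SFS (-2.27), and no other bar does.

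All AP3 unigenes together summed to 189 in YA and 196 in VCA, then 144, 97.1 and 63.1 in EFS, FBS and SFS. All PI unigenes summed to 985, 932, 804, 783 and 576 in the same order. PI was therefore in excess at every one of these stages, by 5.22 times in YA and 4.75 times in VCA, then by 5.58, 8.06 and 9.12 times in EFS, FBS and SFS. Both classes were measured as RNA, and the proteins that form the pair were not analysed here.

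Between YA and SFS the AP3 sum was 2.99-fold lower (log2 ratio -1.58), and this was -0.62 when each library was divided by its summed actin FPKM. The PI sum was 1.71-fold lower in SFS (log2 ratio -0.77), a direction that turned to 0.19 after division by actin. Dividing by actin shifts every log2 ratio of SFS to YA by 0.96, and dividing by the median ratio shifts it by 0.46. The AP3 log2 ratio lay 0.80 below that of PI (log2 difference -0.80), which a common scaling does not alter beyond the pseudocount. Of all sequence clusters that reached an FPKM of 1 in 1 or both of these libraries, 74.2% differed 2-fold or more between YA and SFS, so a 2-fold difference of a sum is not particular to the B class.

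Single unigenes were counted in the same way, as 2-fold or more on the log2(FPKM + 0.1) scale where 1 or both libraries reached an FPKM of 1. Unigene123412 did not pass this filter in any of the 5 later libraries, and Unigene31031 did not pass it from YA to VCA.

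From YA to VCA, 2 of 9 B-class unigenes passed 2-fold, CL27078.Contig2 higher and Unigene7156 lower, beside 61.8% of all unigenes. None of the lineage sums did, beside 58.0% of all sequence clusters. From VCA to EFS, 5 of 10 passed, beside 66.2% of all unigenes and 63.7% of clusters. Unigene31031 and Unigene7156 were higher, and Unigene1341, CL27078.Contig2 and Unigene29707 were lower.

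From EFS to FBS a single B-class unigene of 10 passed, CL27078.Contig1, which was lower, beside 32.5% of all unigenes lower. In either direction the background was 65.6% of all unigenes, 61.8% of clusters and 49.8% of unigenes with an FPKM of at least 5. From FBS to SFS, 5 of 10 passed and all 5 were lower, beside 35.8% of all unigenes lower. In either direction 64.8% of unigenes and 61.2% of clusters passed. The 5 were CL27078.Contig1, CL27078.Contig2, Unigene29707, Unigene31031 and Unigene7156, while both abundant PI unigenes stayed within 2-fold.

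From YA to SFS, 6 of 10 were lower, beside 46.8% of all unigenes, and 1 was higher (Unigene31031, listed at 0 in YA), beside 29.1%. In either direction 75.9% of all unigenes passed 2-fold, and 65.8% of those with an FPKM of at least 5. The median log2 ratio of the 10 was -1.41, and that of all 69437 unigenes passing the filter was -0.78. After division by the median ratio 3 were lower, and after division by actin 2 were. The share of all unigenes after these divisions was not computed, so these counts have no background. Counted in either direction, the B-class share past 2-fold was below that of all unigenes in each of the 5 pairs. Counted as lower, it was above the background from FBS to SFS and from YA to SFS. It was below the background from YA to VCA (1 of 9, beside 31.8% of all unigenes lower) and from VCA to EFS (3 of 10, beside 38.3%). From EFS to FBS it was below as well. These counts are over 9 or 10 unigenes, of which several are contigs of 1 lineage.

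The other floral homeotic genes were taken by name. SEPALLATA (SEP) and AGAMOUS-LIKE 6 (AGL6) proteins join the AP3-PI pair in larger complexes, AGAMOUS (AG) acts with it in stamens, and APETALA1 and FRUITFULL (AP1/FUL) act in sepals, petals and the floral meristem. The 16 SEP unigenes summed to 129 in YA and 139 in VCA, then 76.8, 98.5 and 117 in EFS, FBS and SFS. The most abundant was CL28019.Contig1, a SEP3 homolog, at 116 in YA and 105 in SFS. The 7 AGL6 unigenes summed to 259 in YA and 372 in VCA, then 246, 359 and 243 in EFS, FBS and SFS, led by Unigene7086 at 180.3 in YA and 169.99 in SFS. Neither list reached 2-fold between any of these stages that follow each other.

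AG had a different course. The 8 AG unigenes summed to 149.7 in YA and 146 in VCA, then 28.95, 10.04 and 38.6 in EFS, FBS and SFS. Its lowest library was full bloom, and 5 of 6 unigenes that passed the filter were 2-fold or more lower in SFS than in YA, beside the 46.8% of all unigenes. The most abundant, CL18186.Contig3, had 32.9 in YA and 42.1 in VCA, then 5.90, 2.31 and 9.45 in EFS, FBS and SFS. The AG step from VCA to EFS (log2 ratio -2.33) lay between the same libraries as that of AP3-1 (-1.43), while AP3-3 had 0.10 there. AP1/FUL, with 20 unigenes, summed to 40.3 in YA and 44.6 in VCA, then 27.4, 67.4 and 37.9 in EFS, FBS and SFS, and its leading unigene, Unigene11162, had 8.03 in YA and 24.2 in FBS. From YA to SFS, 6 of the 14 AP1/FUL unigenes that passed the filter were 2-fold or more higher and 6 lower. For SEP these were 2 higher and 1 lower of 8, and for AGL6 0 higher and 2 lower of 5. Over all unigenes the shares were 29.1% higher and 46.8% lower.

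**Figure D4:**
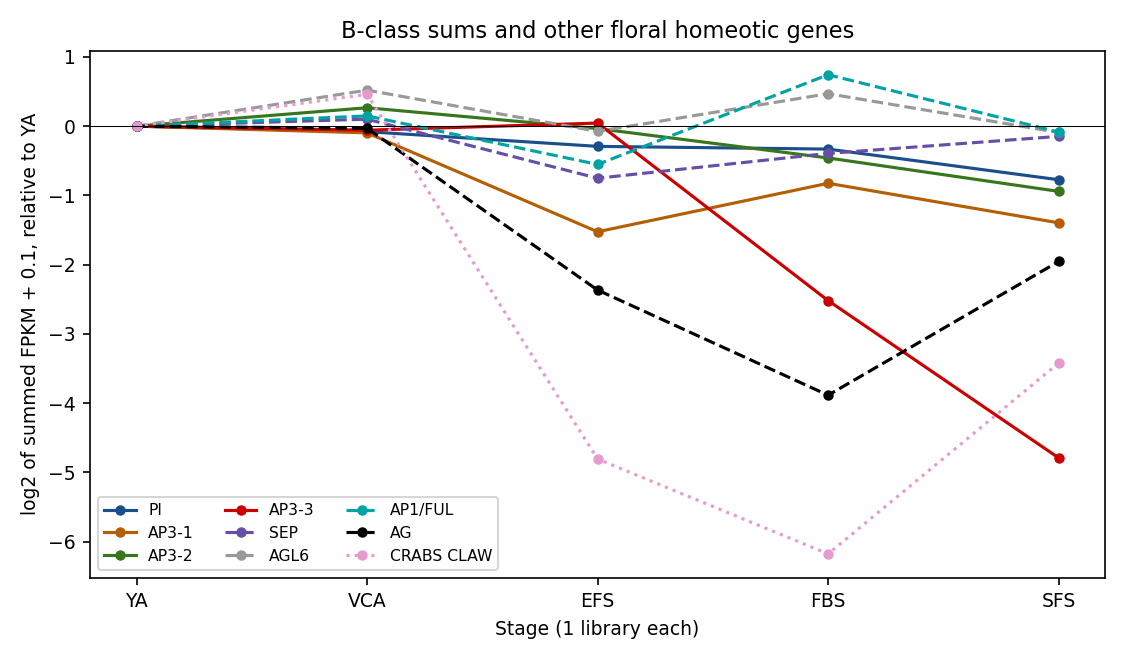
Log2 of the summed FPKM + 0.1 relative to YA for the PI sum, the AP3 lineages (solid lines), the SEP, AGL6, AP1/FUL and AG lists (dashed) and CRABS CLAW (dotted) in the 5 libraries from YA to SFS. AG and CRABS CLAW are low from EFS on, AP3-3 is level until EFS and reaches -4.79 in SFS, and the SEP and AGL6 lists end near YA, at -0.15 and -0.09. The other carpel names, not drawn, together did not share the course of CRABS CLAW.

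The upstream regulators did not exceed 3.29 in the 5 later libraries. LEAFY, which activates AP3 in Arabidopsis, had 6 unigenes that were listed at 0 in YA, VCA, EFS and FBS. Unigene38636 had 2.08 in SFS. In FBD the 6 summed to 20.8, with 3 at an FPKM of 1 or more. By best Nr match, 4 of the 6 were nearest to the poppy Eschscholzia, and Unigene38636 to Aquilegia. Whether the LEAFY unigenes of FBD are genes of A. amurensis was not tested. UNUSUAL FLORAL ORGANS, its cofactor, had 2 unigenes, both listed at 0 in the 5 later libraries, and Unigene116298 had 3.91 in FBD. SUPERMAN, which limits B-class expression at the stamen-carpel boundary, had 3.29 in YA, 1.94 in VCA, 0.58 in SFS and a listed 0 in EFS and FBS (Unigene25810). NAC transcription factor 29 (CL7924.Contig1), the homolog of the Arabidopsis AP3-PI target NAP, had between 0.67 in SFS and 2.82 in FBS.

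The summed levels of organ marker genes also differed between these libraries. The 154 unigenes with anther or pollen names summed to 2099.8 in YA and 2278 in VCA, then 4390.5, 3322 and 2753 in EFS, FBS and SFS, with 64 to 79 of them at 0 in a library. The 80 chlorophyll a-b binding unigenes, marking green tissue, summed to 6047 in YA and 9036 in VCA, then 6357, 2997 and 10753 in EFS, FBS and SFS, with 34 to 40 at 0. The 8 carpel-named unigenes summed to 30.7, 44.8, 20.1, 13.2 and 17.1. Among them, the 3 of CRABS CLAW, a carpel gene, summed to 17.3, 23.8, 0.52, 0.14 and 1.52. CRABS CLAW was lower in EFS, FBS and SFS than in both bud libraries, as was AP3-1. It was thus also low in FBS and SFS, where AP3-3 was low. The carpel sum was lower in EFS, FBS and SFS too, but it includes CRABS CLAW. Without CRABS CLAW, the other carpel names together were lower in EFS, FBS and SFS than in VCA, but higher in EFS and SFS than in YA. They thus did not share the lower level of CRABS CLAW against both bud libraries. The green sum was at its lowest in FBS and its highest in SFS. The part of organ makeup in the B-class levels was not tested.

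The unigenes whose courses lay nearest to the B-class sums were sought among 2213 named unigenes with a mean FPKM of at least 50, by the largest difference between log2 profiles, each centred on its own mean over the 5 libraries. Nearest to the PI sum were Unigene33958 (lactoylglutathione lyase, a detoxifying enzyme) at a difference of 0.07, Unigene17908 (a proteasome subunit) at 0.07 and CL16952.Contig2 (a GTP-binding protein, OBGC2) at 0.10. Nearest to the AP3 sum were CL29619.Contig1 (coatomer subunit gamma-2) at 0.11, Unigene33801 (60S ribosomal protein L44) at 0.14 and Unigene10895 (prohibitin-1) at 0.15. Of the 2213, 87 lay within a difference of 0.3 of the PI sum and 30 of the AP3 sum.

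The FBD library held other B-class sequences than the later 5. Of the 11 unigenes, 5 were above 0 in FBD and 6 were listed at 0. Of all 190353 unigenes, 72765 were above 0 there, so a listed 0 is not particular to the B class. Apart from Unigene123412, those above 0 were at 3.38 (CL7507.Contig2), 0.25 (Unigene23673), 0.12 (Unigene1341) and 0.10 (CL27078.Contig1). These levels were 0.485%, 0.212%, 0.273% and 0.359% of the mean of the same unigene over the other 5 libraries. Unigene123412, the AP3 unigene nearest to Papaver nudicaule, had 65.4 in FBD, 0.09 in YA, 0.17 in VCA and a listed 0 in EFS, FBS and SFS. Its FBD level was close to that of Unigene1341 in YA.

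By the rule PI was almost absent from FBD, with a sum of 3.63 beside an AP3 sum of 65.6, nearly all of it Unigene123412. A wider search that also took the names DEFICIENS, GLOBOSA (the snapdragon names of AP3 and PI) and the rice B-class genes found 7 more unigenes. CL7220.Contig2, a GLOBOSA match, had 210.1 in FBD, 0.39 in YA and a listed 0 in the 4 other libraries, and was the highest MADS-box unigene of FBD. CL10616.Contig1 and CL10616.Contig2, which match the rice AP3 homolog MADS16, had 23.5 and 12.01 in FBD and a listed 0 elsewhere. CL19409.Contig5 and CL19409.Contig2, at 1.67 and 1.12 in FBD, match MADS16 in Swiss-Prot but FLOWERING LOCUS C, which is no B-class gene, in Nt. The seventh, CL7507.Contig1, shares its cluster with the main PI unigene and had 23.3 in YA and 9.24 in VCA, then 22.5 in EFS, 3.0 in FBS and a listed 0 in SFS and FBD. These unigenes are named here after their values were seen.

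**Figure D5:**
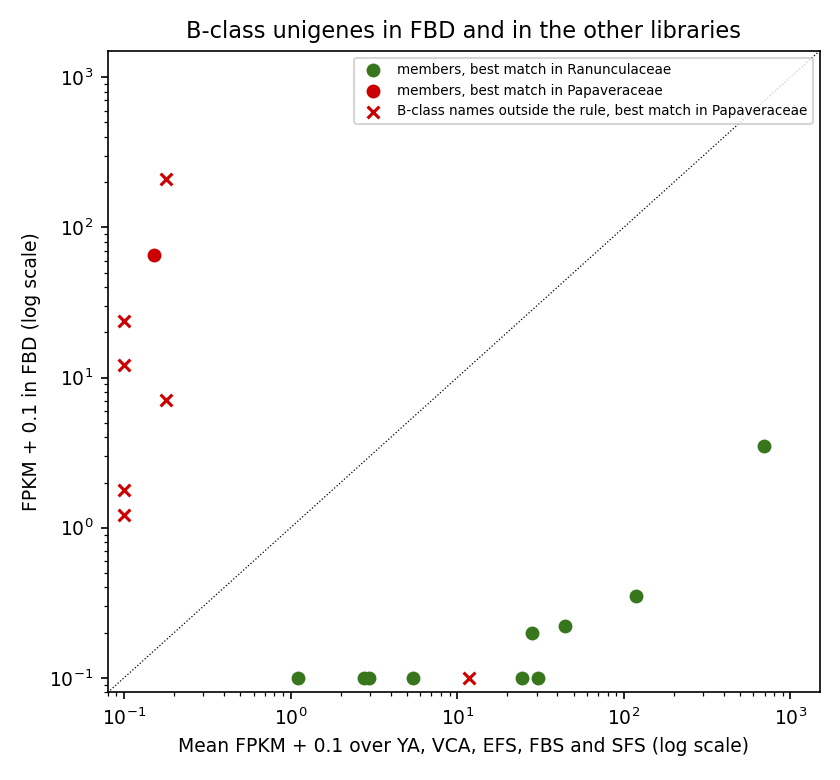
FPKM + 0.1 in FBD against the mean FPKM + 0.1 over the other 5 libraries, both on log scales, for the 11 B-class unigenes (circles) and the 7 found by the wider names (crosses), colored by the plant family of the best Nr match, with the dotted line marking equal levels. The 10 circles matching Ranunculaceae lie below the line, and 7 of the 8 symbols matching Papaveraceae lie above it.

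The best matches divided along the same border. Over both searches, all 10 unigenes with a best Nr match in Ranunculaceae were 20-fold or more higher in the other 5 libraries, and 7 of the 8 with a best match in Papaveraceae, the poppy family, were 20-fold or more higher in FBD. The 7 include both CL19409 contigs, and the exception was CL7507.Contig1, whose best Nt match was PI-2 of A. vernalis. Among MADS-box unigenes by KOG that reached an FPKM of 1 in FBD or as the later mean, 27 of 31 matching Ranunculaceae were 20-fold or more higher in the other 5 libraries and 14 of 15 matching Papaveraceae were 20-fold or more higher in FBD. Over all unigenes the counts were 352 of 407 and 148 of 170. The genera were sorted into families after these values were seen, and the source of the FBD library was not tested.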

How the data were processed

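The authors assembled Illumina reads of A. amurensis floral organs de novo with Trinity, clustered contigs into unigenes, annotated these by database matches and calculated FPKM with RSEM. The deposited FPKM, 1 column per stage, are normalized for unigene length and mapped reads. The sources used here give no version of Trinity or RSEM. In the copy used here 2 lines were emptied, and their content was not analysed here. No reference genome was used.

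Members, classes and sums were computed in Python 3.11.15 with numpy 2.4.6 and pandas 2.3.3, and plots with matplotlib 3.10.9. Ratios are on the log2(FPKM + 0.1) scale, which understates changes of weak unigenes, folds are of plain FPKM, and 2-fold counts require that 1 or both libraries reach an FPKM of 1. FPKM was summed over contigs because RSEM divides the reads that contigs share. Whether members of different sequence clusters share reads was not tested. No test was run, because each stage is 1 library. The members and lists were chosen with earlier results of these data known. Members reaching an FPKM of 5 in any library are given with values in all libraries, and for each list of other floral genes its most abundant unigene is named. The calling step was run on simulated data with planted changes larger than 2-fold and little added noise. This checks the code only and says nothing about calls in these libraries. Alternatives were other pseudocounts, low-value filters, scalings, name rules and domain requirements.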

Additional observations from a re-analysis of the deposited data

How the results depend on the processing

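Of 404 alternative values, 351 stayed within 1.5 times the value reported and 53 did not, and no called ratio changed sign. For ratios this limit applies to the fold, so a small log2 ratio could change by more and still count as within it. The PI ratio from YA to SFS, for example, went from -0.77 to -0.32 after division by the median ratio. Division by the summed actin FPKM moved 20 values and left 24, and no other setting moved as many. Ratios for FBS to SFS moved to 0.15 (PI sum), -0.030 (AP3 sum), 0.018 (AP3-1) and 0.11 (AP3-2). Those for YA to SFS moved to 0.19, -0.62, -0.44 and 0.017, with -3.86 for AP3-3. Division by actin also gave 2 unigenes higher from EFS to FBS and 2 lower from YA to SFS, where the median ratio gave 3. A pseudocount of 1 left 0 unigenes lower from YA to VCA, 1 higher from VCA to EFS and 3 lower from FBS to SFS, and moved LEAFY and SUPERMAN from YA to SFS to 1.62 and -1.44. A minimum FPKM of 5 gave 0 lower from YA to VCA, 1 higher from VCA to EFS and 2 lower from FBS to SFS. From YA to SFS it gave 0 higher, beside 25.0% of all unigenes, and 3 lower, beside 40.8%. The 3 lower were CL27078.Contig1, Unigene1341 and Unigene31032. Of the others, only CL7507.Contig2, Unigene23673 and Unigene5582 reached this minimum in YA or SFS, so the B-class share counted as lower was above the background. The share of all unigenes was not computed for the other pairs named at this minimum, nor under the other scalings and pseudocounts. The wider names gave 2 lower from YA to VCA and 2 lower from EFS to FBS.

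Keeping only unigenes whose InterPro entry spells out a MADS-box or K-box domain leaves no PI unigene, although the unnamed entry of Unigene23673 carries a MADS domain accession. It drops CL27078.Contig1 and gave AP3-3 ratios of 1.67 (YA to VCA), -2.16 (VCA to EFS), -0.051 (EFS to FBS) and -2.61 (YA to SFS). Counts were then 0 lower from YA to VCA, 0 higher from VCA to EFS, 0 lower from EFS to FBS, 2 lower from FBS to SFS, and 0 higher and 3 lower from YA to SFS. Keeping unigenes with any MADS-family InterPro accession, chosen after seeing the data, gave a log2 AP3 to PI ratio of -3.63 in FBS, compared with -3.01, with 0 lower from YA to VCA, 0 higher from VCA to EFS, 3 lower from FBS to SFS and 0 higher from YA to SFS. The lineage from Nr, also chosen after seeing the data, moved no AP3-2 ratio by over 1.5 times in fold. No paired analysis was possible because each stage has 1 library. Depth limits the weak unigenes most, since read numbers are unknown.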
